A study of Homo sapiens with 4 samples.

Results

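Genes of the collagen, integrin, laminin, ADAMTS, cadherin and protocadherin families were examined for crosslinked RNA recovered with CFAP20. The families were chosen with earlier results of these data known, and their genes were picked by symbol. The symbols were COL, digits, A and digits, or any starting with ITGA, ITGB, LAMA, LAMB, LAMC, ADAMTS, CDH or PCDH. The 8 antisense names among them were left out. This gave 44 of the 9667 genes in the deposited tables. They comprised 14 collagens, 6 integrin alpha chains, 1 integrin beta chain (ITGB6), 1 laminin chain, 7 ADAMTS genes including 1 ADAMTS-like gene, 9 cadherins including 2 cadherin-related genes and 6 protocadherins. Family genes outside the deposited set could not be read, so these counts do not describe whole families.

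The data are 4 FLASH-seq libraries from RPE1 cells, an immortalised human line derived from retinal pigment epithelium. The cells of all 4 libraries lacked p53 and the puromycin resistance gene, carried an inducible Cas9, and had CFAP20 knocked out. The 2 CFAP20-KO libraries, the negative control, came from the knockout cells as such, and the 2 tagged-CFAP20 libraries from knockout cells that expressed FLASH-BIO-CFAP20, a CFAP20 with a biotin-carrying tag. Neither the promoter of the tagged gene nor the number of clones is stated in the labels. In FLASH-seq, UV-C light crosslinks protein to RNA in intact cells, streptavidin beads collect the biotin-carrying protein, RNase I trims the RNA, and what is left is made into a library. The study asked whether CFAP20 binds RNA. The labels do not say whether the replicates are separate cultures, so p-values measure only the spread between these libraries.

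Collagens are the structural proteins of the extracellular matrix, long triple helices of alpha chains whose genes are split into many short exons. Integrins are paired alpha and beta chains that bind matrix proteins such as collagen and fibronectin at the cell surface and connect them to actin through focal adhesion proteins. Laminins build the basement membrane, ADAMTS proteins are secreted proteases that process procollagens and proteoglycans, and cadherins and protocadherins are calcium-dependent adhesion proteins between cells. RPE cells rest on a basement membrane and grow in culture as an adherent, matrix-producing layer.

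Signal was counted in 200-bp bins from the gene start to its end, at most 100 kb downstream. All values of a library were whole multiples of a single step, taken as 1 read overlapping 1 bin. Values divided by the step are called read overlaps, and values as deposited are called signal. For CFAP20-KO the step was 83.0 signal units in replicate 1 and 276.9 in replicate 2. For tagged-CFAP20 it was 12.9 and 13.9, so a single CFAP20-KO overlap is worth many tagged-CFAP20 overlaps. Over all genes the libraries held 9146 and 3908 read overlaps in CFAP20-KO and 165189 and 134891 in tagged-CFAP20. The summed signal of all genes was 2.17 times as high with tagged-CFAP20 as in CFAP20-KO on the deposited scale, whose normalization is not stated. No gene in the deposited tables carries the symbol CFAP20, so the target gene itself could not be read. Of the markers of retinal pigment epithelium, MITF had 5 and 0 overlaps in CFAP20-KO and 31 and 21 in tagged-CFAP20, OTX2 had none in CFAP20-KO and 26 and 34 in tagged-CFAP20, RPE65 had 0, 0, 4 and 2, and TTR had none. The blood marker CD3E and the liver marker ALB had no overlap in any library. The neuronal marker SNAP25 had none in CFAP20-KO and 11 and 15 in tagged-CFAP20.

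Where the signal of the leading members sat is shown first by the 200-bp bin that carried most tagged-CFAP20 overlaps, read from the hg38 genome on the strand of the gene, with bases of GENCODE 44 exons in capitals. The bins of 3 leading members are given, 1 wholly exonic, 1 mostly exonic and 1 mostly intronic; they do not stand for the other members.
COL12A1, chr6:75165552-75165751, minus strand, within exon 14 of 66: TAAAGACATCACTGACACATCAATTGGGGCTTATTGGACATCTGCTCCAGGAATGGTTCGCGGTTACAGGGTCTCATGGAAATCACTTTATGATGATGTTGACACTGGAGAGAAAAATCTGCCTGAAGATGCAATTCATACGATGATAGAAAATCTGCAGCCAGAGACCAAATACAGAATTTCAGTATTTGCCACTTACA
ITGA5, chr12:54403161-54403360, minus strand, exon 18 of 30 with the ends of both flanking introns: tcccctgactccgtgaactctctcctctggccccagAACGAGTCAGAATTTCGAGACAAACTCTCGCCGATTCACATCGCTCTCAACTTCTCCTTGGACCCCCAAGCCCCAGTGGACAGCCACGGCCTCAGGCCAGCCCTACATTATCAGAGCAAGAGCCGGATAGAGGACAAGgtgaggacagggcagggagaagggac
COL1A1, chr17:50199933-50200132, minus strand, end of intron 1 and start of exon 2 of 51: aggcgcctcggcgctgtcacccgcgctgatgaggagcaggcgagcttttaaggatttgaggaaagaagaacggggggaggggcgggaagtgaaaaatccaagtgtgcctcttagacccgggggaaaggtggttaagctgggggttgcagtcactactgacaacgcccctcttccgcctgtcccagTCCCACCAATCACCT
The COL12A1 bin held 11 and 9 tagged-CFAP20 overlaps and none from CFAP20-KO, and was tied with 1 other bin. The ITGA5 bin held 14 and 7, and none from CFAP20-KO. The COL1A1 bin held 36 and 22, and 1 and 0 in CFAP20-KO. These counts do not compare the groups, because the bins were picked for their tagged-CFAP20 overlaps. The CFAP20-KO libraries are also far shallower, with 9146 and 3908 overlaps over all genes against 165189 and 134891, so a 0 there was likely in any single bin.

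A few members carried nearly all of the signal. ITGA11, COL12A1, COL1A1 and ITGA5 ranked 16, 21, 35 and 48 of all 9667 genes by mean signal over the 4 libraries. They held 74.4% and 71.7% of the member overlaps in CFAP20-KO and 68.8% and 70.3% in tagged-CFAP20. The 10 leading members held 94.6% to 98.1% in each library. At the other end, 8 members had no overlap in any library, which allows up to 3 reads pooled over both libraries of a group, worth a signal of 263.1 in CFAP20-KO and 27.5 with tagged-CFAP20. One of these, named here after its values were seen, was COL1A2, whose product pairs with that of COL1A1 in type I collagen. The other silent members were the collagen COL20A1, ADAMTSL2, the cadherins CDH5, CDH16 and CDHR4, and the protocadherins PCDH8 and PCDH19.

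Overlaps were found in at least 1 tagged-CFAP20 library for 36 members and in at least 1 CFAP20-KO library for 16. For 20 members both CFAP20-KO libraries were at 0 while tagged-CFAP20 had some signal. In 19 of those the tagged-CFAP20 mean lay under the signal of 3 CFAP20-KO reads, so that the depth of the control libraries could not show a difference. The exception, ADAMTS1, a small secreted protease gene that falls outside the naming rule, had 33 and 14 overlaps (signal 424.2 and 195.1). Its mean was 1.18 times the signal of 3 pooled CFAP20-KO reads, but tagged-CFAP20 replicate 2 lay under that signal, and the lower counting limit of its ratio was 0.914, so a difference was not detectable at this depth either. Only 10 members, 5 collagens, 2 integrin alpha chains and 3 ADAMTS genes, had a mean signal over the 4 libraries of at least that of 3 pooled CFAP20-KO reads, and entered the test. Signal in either group helped a gene to pass, and 1 CFAP20-KO overlap weighed more than 1 tagged-CFAP20 overlap. Each of the 10 had a CFAP20-KO mean above 263.1, the lowest being 318.4 in ADAMTS14. The counts of these 10 therefore do not describe all 44 members. COL6A3, with a mean of 266.5, passed only through its CFAP20-KO signal (group mean 359.9, against 173.0 with tagged-CFAP20). Its lower value with tagged-CFAP20 is therefore tied to the filter.

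COL12A1, ADAMTS14 and ADAMTS6 had the largest log2 changes among the members tested, but no member passed the test. With limma on log2(signal + 276.9), 0 of the 10 members were called higher or lower with tagged-CFAP20 at an adjusted p under 0.05, against 0.0% of the 1546 genes tested in either direction. The lowest adjusted p over all genes was 0.051. Without CFAP20-KO replicate 1 limma called 4 of the 10 members higher and 1 lower, against 51.7% and 11.5% of all genes tested. Without CFAP20-KO replicate 2 it called 7 higher, against 71.5% of all genes tested, the lone control library then being assumed to vary like the tagged-CFAP20 libraries. At an unadjusted p under 0.05, 4 of the 10 members were higher and none lower, against 33.4% of all tested genes higher and 0.259% lower. The median log2 change was 0.51 over the 10 members and 0.78 over all genes tested. The libraries of the groups did not overlap, with tagged-CFAP20 higher, in 5 of the 10 members (ITGA11, COL12A1, ITGA5, ADAMTS6 and ADAMTS14), against 62.5% of all genes tested. In none did they separate the other way, against 2.98%. With every library scaled to the same total, 7 of the 10 log2 changes were below 0 (median -0.26, against 0.071 over all genes), and 6 of the 9 changes that were above 0 on the deposited scale had turned negative. An exact permutation test of 2 against 2 libraries cannot go below p = 0.333.

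**Figure D1:**
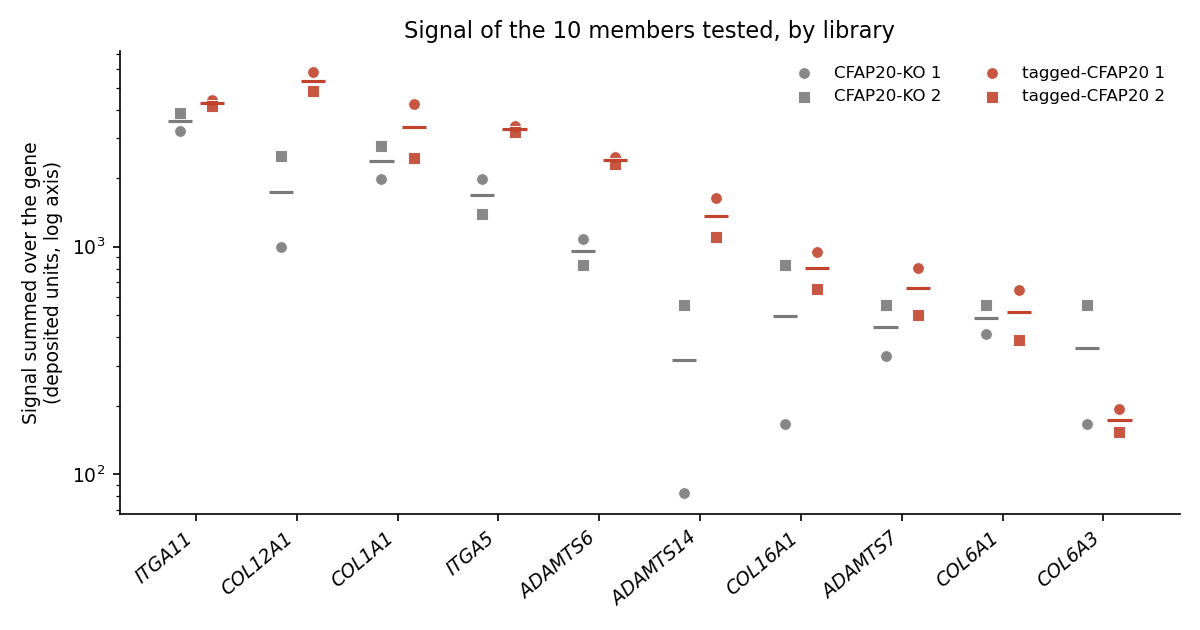
Signal summed over the gene (deposited units, log axis) for the 10 members tested, ordered by mean signal. Grey symbols are the 2 CFAP20-KO libraries, red symbols the 2 tagged-CFAP20 libraries, and bars the group means. The groups separate in 5 of the 10 members, and the CFAP20-KO libraries of COL12A1 and ADAMTS14 stand far apart.

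Among the collagens, COL12A1, which encodes the chain of type XII collagen, a fibril-associated collagen (chr6:75084326-75206051, minus strand), had 12 and 9 read overlaps in CFAP20-KO and 456 and 348 in tagged-CFAP20. The 12 overlaps counted 83.0 signal units each, the 9 summed to a signal of 2492, and the tagged-CFAP20 libraries had signals of 5861 and 4849. Both tagged-CFAP20 libraries lay above both CFAP20-KO libraries, although the CFAP20-KO libraries differed from each other by more than the tagged ones did. Group means were 1744 ± 1058 and 5355 ± 715.8 (SD, n = 2 each), a ratio of 3.07. The log2 change was 1.58 (SE 0.45), with an adjusted p of 0.075 by limma over all genes tested.

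COL1A1, the major chain of type I collagen (chr17:50183289-50201632, minus strand), had 24 and 10 overlaps in CFAP20-KO and 329 and 176 in tagged-CFAP20. Its signal was 1992 and 2769 in CFAP20-KO and 4229 and 2452 in tagged-CFAP20. The second tagged-CFAP20 library fell between the CFAP20-KO libraries, so the groups overlapped. The ratio of means was 1.403 and the log2 change 0.42 (SE 0.40), with an adjusted p of 0.492 by limma. Per kilobase of gene, COL1A1 had the highest signal of all members, a mean of 182.1 signal units per kb with tagged-CFAP20 and 129.8 in CFAP20-KO, against 53.5 and 17.4 for COL12A1.

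COL16A1, which encodes a fibril-associated collagen, had 2 and 3 overlaps in CFAP20-KO and 74 and 47 in tagged-CFAP20. Its log2 change was 0.61, with an adjusted p of 0.459 by limma, and its groups overlapped. COL6A1 and COL6A3, chains of the microfibrillar type VI collagen that lie outside the naming rule and are given because they complete the 5 collagens tested, had log2 changes of 0.047 and -0.43, with adjusted p-values of 0.945 and 0.500 by limma. The remaining collagens had between 0 and 7 overlaps in any library.

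ITGA11 encodes the integrin alpha chain that pairs with the beta 1 chain as a receptor for fibrillar collagens (chr15:68302767-68432162, minus strand). It had the highest mean signal of all members over the 4 libraries, with 39 and 14 overlaps in CFAP20-KO and 342 and 299 in tagged-CFAP20. The signal was 3237 and 3876 in CFAP20-KO and 4396 and 4166 in tagged-CFAP20. The groups did not overlap, but the means, 3557 ± 452.1 and 4281 ± 162.5 (SD, n = 2 each), differed by a ratio of only 1.20. The log2 change was 0.25 (SE 0.33), with an adjusted p of 0.614 by limma.

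ITGA5, the alpha chain of the fibronectin receptor (chr12:54395261-54419460, minus strand), had 24 and 5 overlaps in CFAP20-KO and 263 and 228 in tagged-CFAP20. Its signal of 1992 and 1384 in CFAP20-KO lay below that of 3380 and 3177 in tagged-CFAP20. The ratio of means was 1.94 and the log2 change 0.87 (SE 0.35), with an adjusted p of 0.135 by limma. ITGAX, a leukocyte integrin chain, had 1, 0, 6 and 3 overlaps over the 4 libraries, and ITGB6, an epithelial beta chain, 0, 0, 6 and 9. Neither entered the test.

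Of the ADAMTS proteases, ADAMTS6 (chr5:65148736-65481920, minus strand, of which the first 100 kb were read) had 13 and 3 overlaps in CFAP20-KO and 192 and 166 in tagged-CFAP20. The signal was 1079 and 830.6 in CFAP20-KO and 2468 and 2313 in tagged-CFAP20, with no overlap between the groups. The ratio of means was 2.50 and the log2 change 1.12 (SE 0.34), with an adjusted p of 0.081 by limma. ADAMTS14, a procollagen N-propeptidase (chr10:70672803-70762441, plus strand), had 1 and 2 overlaps in CFAP20-KO and 127 and 79 in tagged-CFAP20. The signal was 83.0 and 553.8 in CFAP20-KO and 1632 and 1101 in tagged-CFAP20, with no overlap between the groups. The ratio of means was 4.29. With so few CFAP20-KO reads the ratio of pooled reads, which weights libraries by depth, is given too; it was 7.85, with a 95% exact counting interval of 2.14 to 65.4. The log2 change was 1.57 (SE 0.52), with an adjusted p of 0.096 by limma, and was 0.97 without CFAP20-KO replicate 1. ADAMTS7, which degrades cartilage matrix proteins, had 4, 2, 63 and 36 overlaps over the 4 libraries and a log2 change of 0.37, with an adjusted p of 0.573 by limma. Reads of ADAMTS7 are uncertain, since the annotation holds pseudogene copies of it on the same chromosome and its start overlaps MORF4L1.

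The cadherin-type genes were close to silent. CDHR3, CDH17 and CDH26 had at most 5 overlaps in any library, with 2, 0, 3 and 2 for CDHR3. The protocadherins PCDH18, PCDHB11 and PCDH1 also had at most 5, with 1 CFAP20-KO overlap each. PCDHB11 is a member of a cluster of similar genes, so that its few reads could come from neighbours. No cadherin or protocadherin entered the test.

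**Figure D2:**
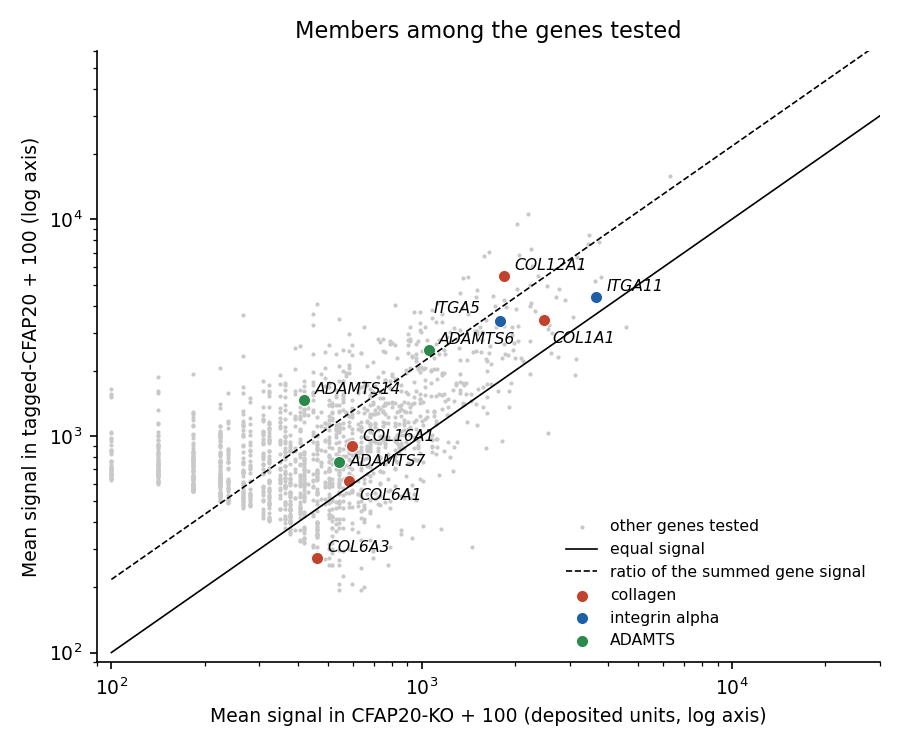
Mean signal per gene in CFAP20-KO (x) and tagged-CFAP20 (y), each with 100 units added, on log axes, for the 1546 genes tested (grey) and the 10 members tested (coloured by family). The solid line marks equal signal and the dashed line the 2.17-fold ratio of the summed gene signal; COL12A1, ADAMTS6 and ADAMTS14 lie on or above the dashed line, and the other 7 members below it.

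Summed by family, signal on ADAMTS genes was 2.84 times as high with tagged-CFAP20 as in CFAP20-KO (4877 ± 847.1 and 1716 ± 314.1, SD, n = 2 each). Only 18 and 7 CFAP20-KO overlaps lay on them. The collagen ratio was 1.87 and the integrin alpha ratio 1.45, against 2.17 for all genes. With every library scaled to the same total the ratios were 1.29 for ADAMTS genes, 0.88 for collagens and 0.65 for integrin alpha chains. The ADAMTS shares with tagged-CFAP20, 0.258% and 0.228%, lay within the 95% intervals of both CFAP20-KO libraries (0.104% to 0.334% and 0.057% to 0.410%). The 44 members together took 1.45% (95% exact Clopper-Pearson interval 1.18% to 1.77%) and 1.36% (0.977% to 1.87%) of the gene overlaps in CFAP20-KO. In tagged-CFAP20 they took 1.22% (1.16% to 1.29%) and 1.11% (1.04% to 1.18%). Both tagged-CFAP20 values were lower than both CFAP20-KO values, but each lay within the interval of at least 1 CFAP20-KO library. These intervals allow for a read lying in 1.37 bins on average and cover counting error only.

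Set against the library's own total, which removes the unknown scale, the leading members did not share a direction. ITGA11 took 0.426% and 0.358% of the gene overlaps in CFAP20-KO and 0.207% and 0.222% in tagged-CFAP20, so its share with tagged-CFAP20 was lower in both libraries. An exact binomial test of pooled reads gave a ratio of shares of 0.52 (95% interval 0.38 to 0.74) and an adjusted p of 0.034 over the 1546 genes. Of the 10 members, 1 (ITGA11) was thus called lower and 0 higher, against 0.647% of all genes tested lower and 0.259% higher. At an unadjusted p under 0.05, 2 members (ITGA11 and COL1A1) were lower and 1 (COL12A1) higher, against 10.2% and 3.23% of all genes. Shares of the groups did not overlap in 5 members that were lower with tagged-CFAP20 (ITGA11, COL1A1, ADAMTS7, COL6A1 and COL6A3) and 2 that were higher (COL12A1 and ADAMTS14), against 23.8% and 24.4% of all genes. Of these, COL6A3 had entered the test only through its CFAP20-KO signal. The test pools the libraries of a group and so measures counting error, not the spread between libraries. The ITGA11 call was lost without CFAP20-KO replicate 1 (ratio 0.61, adjusted p 1.0 by the exact binomial test), without CFAP20-KO replicate 2 (0.51, 0.130) and without tagged-CFAP20 replicate 1 (0.54, 0.059). It was also lost over the 4461 genes above 0 in at least 2 libraries (adjusted p 0.092). Of the 6 alternatives run for this value the call was lost in 5 and kept without tagged-CFAP20 replicate 2.

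The COL12A1 share was 0.131% and 0.230% in CFAP20-KO and 0.276% and 0.258% in tagged-CFAP20, a ratio of 1.70 (95% interval 1.02 to 3.05) with an adjusted p of 0.349 by the exact binomial test. The ratio was 1.09 without CFAP20-KO replicate 1 and 1.98 without CFAP20-KO replicate 2. The COL1A1 share was 0.262% and 0.256% in CFAP20-KO and 0.199% and 0.130% in tagged-CFAP20, a ratio of 0.64 (0.43 to 1.00) with the same adjusted p of 0.349. ITGA5 and ADAMTS6 had overlapping shares between the groups. On the deposited scale the same exact test called COL12A1 (adjusted p 1.9e-09), ADAMTS14 (0.00093), ADAMTS6 (0.015) and ITGA5 (0.033) higher, 4 of 10 members, against 28.8% of all genes tested higher and 0.129% lower.

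**Figure D3:**
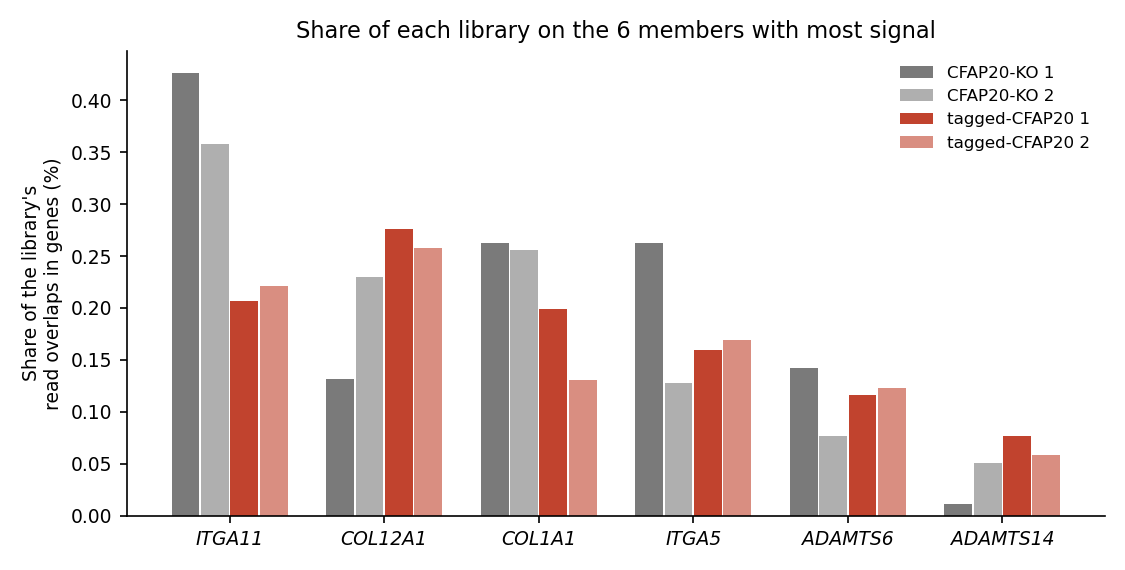
Share of each library's read overlaps in genes (percent) that fell on the 6 members with most signal, 1 bar per library (grey, CFAP20-KO; red, tagged-CFAP20). The ITGA11 bars are higher in both CFAP20-KO libraries (0.426% and 0.358%) than in tagged-CFAP20 (0.207% and 0.222%), and the COL12A1 bars are higher in both tagged-CFAP20 libraries.

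The member overlaps were not gathered in the first 1 kb of the genes, and their profiles differed from gene to gene. The first 1 kb held 2.13% and 2.81% of the member overlaps in tagged-CFAP20, with 2.002% of the member bins lying there, and 0% and 3.77% in CFAP20-KO. From 1 to 5 kb, with 6.64% of the bins, lay 11.5% and 8.10% in tagged-CFAP20 and 6.02% and 9.43% in CFAP20-KO. This zone leaned on 1 gene. Of the 2021 and 1494 member overlaps in tagged-CFAP20, 111 and 75 lay in 6 COL1A1 bins of this zone. Beyond 50 kb the shares were 39.8% and 43.98% in tagged-CFAP20 and 33.1% and 35.8% in CFAP20-KO. At least 1 tagged-CFAP20 overlap was found in 58.1% of the COL12A1 bins, 87.0% of the COL1A1 bins, 81.1% of the ITGA5 bins and 51.5% of the ITGA11 bins. The bin with most held 2.49% of the COL12A1 overlaps and 11.5% of those of COL1A1.

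COL1A1 had the most uneven profile of these genes. The 6 bins centred 1.4 to 2.4 kb from its start, a stretch chosen after its values were seen and which includes the bin printed above, held 33.7% and 42.6% of its overlaps in tagged-CFAP20 (111 of 329 and 75 of 176). In CFAP20-KO they held 12.5% and 20.0% (3 of 24 and 2 of 10). A long noncoding RNA gene on the opposite strand (ENSG00000249406) overlaps the printed bin. The signal is not split by strand, so its reads and those of COL1A1 cannot be told apart. The same holds for the printed ITGA5 bin, which GPR84-AS1 overlaps, and for the end of COL16A1, which PEF1-AS1 overlaps.

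In ITGA11 the first 60 kb, which hold 3 exon bins, had few overlaps, and both groups had more further downstream. From 60 to 80 kb lay 137 and 146 overlaps in tagged-CFAP20 and 19 and 3 in CFAP20-KO, or 44.1% and 41.5% of the pooled overlaps of each group. From 80 to 100 kb lay a further 32.9% and 32.1%. In the intron bins alone the tagged-CFAP20 overlaps per bin were 0.40, 0.43 and 0.57 in the successive 20-kb stretches up to 60 kb, and 1.70 from 80 to 100 kb. ADAMTS6 also had more intron overlaps per bin far from its start, with 0.40 in the first 20 kb and 0.99 from 80 to 100 kb. The intron bins of COL12A1 ranged from 0.61 to 1.13, and its exon bins from 3.36 to 6.06.

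**Figure D4:**
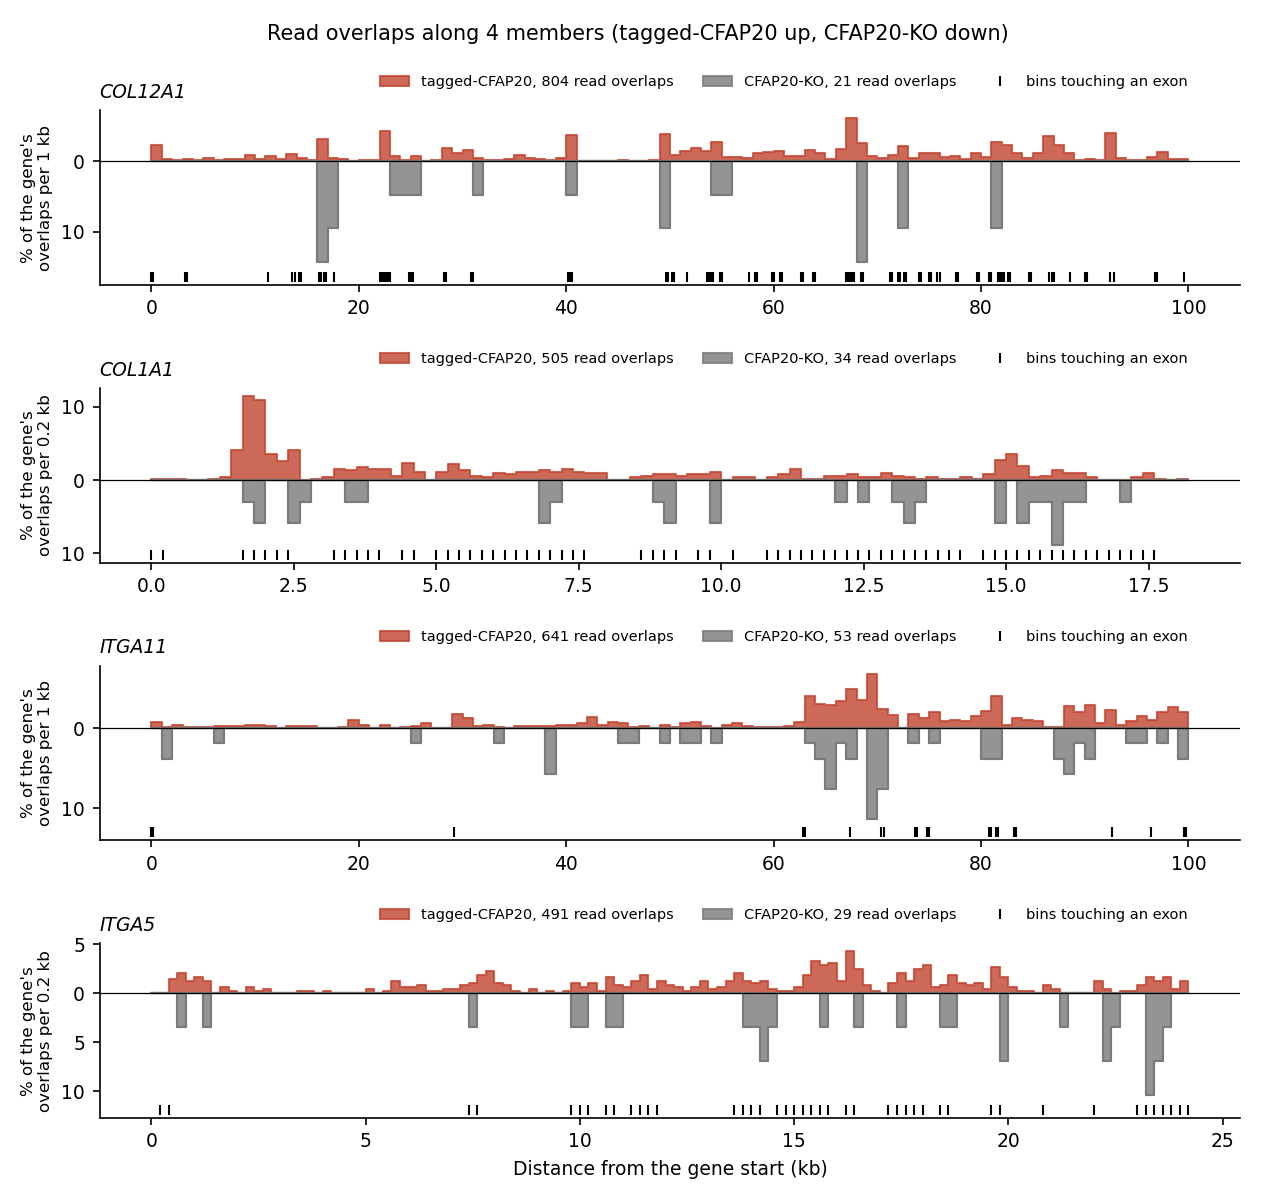
Read overlaps along COL12A1, COL1A1, ITGA11 and ITGA5 by distance from the gene start (kb), as percent of the gene's overlaps per 1 kb or 0.2 kb, pooled over 2 libraries a group: tagged-CFAP20 upward in red, CFAP20-KO downward in grey, with black ticks at bins touching an exon. ITGA11 is denser beyond 60 kb in both groups, and COL1A1 has a cluster at 1.4 to 2.4 kb.

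Bins that touch an exon of the canonical transcript were denser than intron bins in each of the leading genes. With tagged-CFAP20 the overlaps per exon bin exceeded those per intron bin 6.28-fold in COL12A1, 4.96-fold in ITGA11 and 4.14-fold in ADAMTS6. They did so 3.29-fold in ITGA5 and 3.25-fold in COL1A1, against 5.72-fold over all genes. In CFAP20-KO this ratio was higher in each of these genes. It was 25.3 in COL12A1, 7.08 in ITGA11, 5.57 in ITGA5 and 4.33 in ADAMTS6. Few CFAP20-KO overlaps gave these ratios, such as 3 intron and 18 exon overlaps in COL12A1 and 1 and 33 in COL1A1. Over all genes the CFAP20-KO ratio was lower, at 4.42. Intron bins nevertheless held 80.1% and 82.9% of the ITGA11 overlaps in tagged-CFAP20 and 90.6% and 84.9% of those of ADAMTS6, whose introns are long. In COL1A1, where only 25.0% of the bins touch no exon, they held 8.51% and 10.8%. A bin counts as exonic even where most of it is intron. The COL1A1 bin with most overlaps counted as exonic with 15 exon bases of 200, so part of its intron signal counts as exonic.

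The intron share of the members was higher with tagged-CFAP20, with overlapping counting intervals, and that of all genes was lower. Over the 44 members it was 42.9% and 41.5% in CFAP20-KO and 47.9% and 52.3% in tagged-CFAP20, with group means of 42.2% ± 0.953 and 50.1% ± 3.10 (SD, n = 2 each). Pooled over the libraries of a group it was 42.5% (95% exact interval 34.5% to 51.8%) in CFAP20-KO and 49.8% (47.8% to 51.7%) in tagged-CFAP20. Over all genes matched to GENCODE 44 it was 64.6% and 63.8% in CFAP20-KO and 58.3% and 58.1% in tagged-CFAP20. The difference between members and all genes was not tested. Among the 10 members tested the pooled share was higher with tagged-CFAP20 in COL12A1, ITGA5, ITGA11, COL1A1, COL16A1, COL6A1 and COL6A3. In ADAMTS6 it was 87.5% in CFAP20-KO and 88.0% in tagged-CFAP20. It was lower in ADAMTS7 and ADAMTS14, with only 5 intron and 1 exon, and 3 and 0, overlaps in CFAP20-KO. COL16A1 (1 and 4), COL6A1 (0 and 7) and COL6A3 (0 and 4) had as few, so single directions are uncertain. The intron share of COL12A1 was 8.33% and 22.2% in CFAP20-KO (3 intron and 18 exon overlaps pooled) and 40.1% and 40.2% in tagged-CFAP20 (323 and 481). The pooled values were 14.3% (95% exact interval 1.66% to 40.5%) and 40.2% (36.2% to 44.3%), and these intervals overlap. Fisher's exact test of intron against exon reads, run after the values were seen, gave COL12A1 an unadjusted p of 0.057 and an adjusted p of 1.0. It called 0 of the 10 members tested, against 0% of 1541 genes, while at an unadjusted p under 0.05 it called 1.23% of genes with a higher and 1.1% with a lower intron share.

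**Figure D5:**
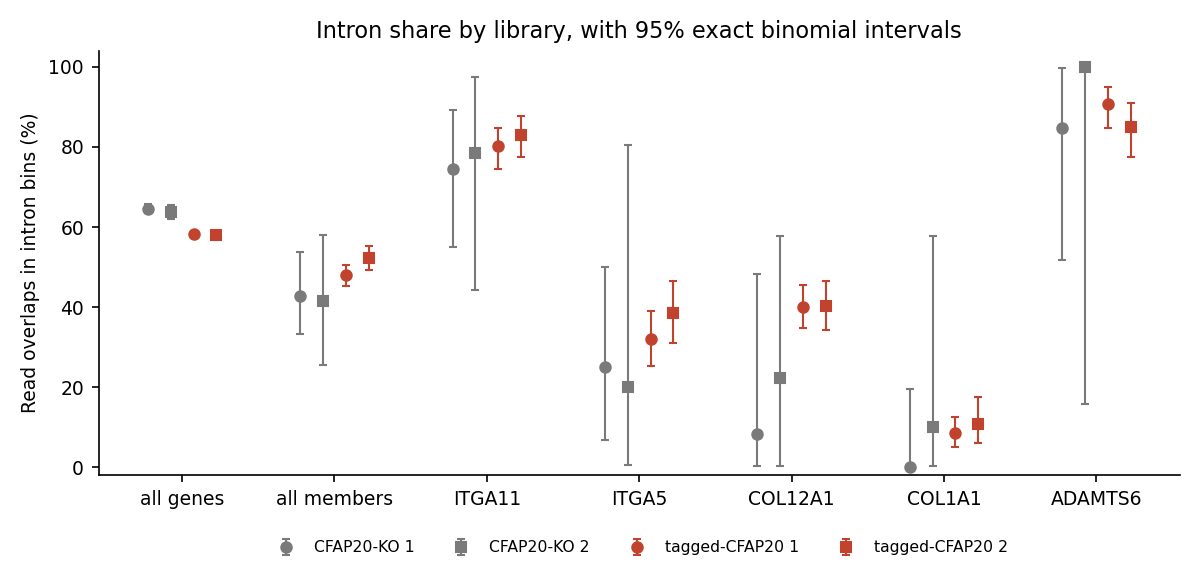
Percent of read overlaps in bins that touch no exon, by library, with 95% exact binomial intervals (grey, CFAP20-KO; red, tagged-CFAP20). The members are at 42.9% and 41.5% in CFAP20-KO and 47.9% and 52.3% with tagged-CFAP20, and all genes at 64.6% and 63.8% and at 58.3% and 58.1%; the CFAP20-KO intervals of single genes are wide.

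Genes that act with these families were read from lists chosen for their function, and limma called none of their members. Over all genes tested the median log2 change was 0.78. The exact binomial test as shares called 0.647% of them lower and 0.259% higher with tagged-CFAP20. Of the focal adhesion partners of integrins 4 of the 6 in the tables entered the test, with a median log2 change of 0.66. FERMT2, a kindlin that activates integrins, had a log2 change of 0.74 (adjusted p 0.196 by limma), and TNS3, a tensin, 0.035 (0.966). Of the genes of collagen biosynthesis and crosslinking 4 of 7 entered, with a median of 0.29. The lysyl oxidases LOXL1 and LOX, which crosslink collagen, had log2 changes of 0.80 (0.160) and -0.82 (0.156), in opposite directions. LOX had 18 and 7 overlaps in CFAP20-KO and 59 and 67 in tagged-CFAP20, and was the 1 gene of this list called lower as a share by the exact binomial test (adjusted p 0.00016). On the deposited scale the exact binomial test called LOXL1 higher (adjusted p 0.040), against 28.8% of all genes tested.

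Of the catenins and desmosomal partners of cadherins 3 of 6 entered, with a median of 0.028. CTNNB1, which encodes beta-catenin, had a log2 change of 0.028 (adjusted p 0.976 by limma) and FAT1, a giant cadherin-like gene, -0.14 (0.886). Of the basement membrane and matrix glycoproteins 3 of 9 entered, with a median of 0.29. EFEMP1, a fibulin, had a log2 change of -0.44 (0.420), and was lower as a share by the exact binomial test (adjusted p 9.4e-05). LTBP4, which binds latent TGF-beta, had 3 and 1 overlaps in CFAP20-KO and 127 and 115 in tagged-CFAP20. Its log2 change was 1.81 (adjusted p 0.051 by limma), and the exact binomial test on the deposited scale gave an adjusted p of 0.00073. As a share its adjusted p was 0.538 by the same test.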

How the data were processed

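For each library the authors deposited a table of coverage signal in 200-bp bins around the starts of a selected set of genes. These were 6427 and 4848 genes in CFAP20-KO and 9199 and 9071 in tagged-CFAP20. The labels name a minimum gene length and a minimum gap. Per the labels, reads were mapped to hg38; per the submitters' processing notes HOMER 4.8.2, Bowtie2 2.3.5, UMI-tools 1.0.0 and R 4.0.5 were used. How values were scaled is not given in the sources used here. Genes absent from a library's table count as 0, and 1 column that matched no sample was not used. Signal was not a whole-read count, so limma 3.58.1 (trend, R 4.3.3) was run on log2(signal + 276.9), the largest 1-read step, over 1546 genes with a mean signal of at least 263.1 (3 reads pooled over both CFAP20-KO libraries), with Benjamini-Hochberg adjustment at 0.05. A read covered 1.37 bins, and exact tests (scipy 1.17.1) divide overlaps by this. Scripts were tested on simulated data. GENCODE 44 matched 44 of 44 members and 9478 of 9667 genes. The other deposited columns (unit other) give gene position and length. Named members are the 3 with most signal per family and those past a threshold in limma or in the share test; lists name their 2 leading genes. The members and lists were chosen with earlier results of these data known. Some items that the naming rule selects are not reported here.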

Additional observations from a re-analysis of the deposited data

How the results depend on the processing

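Limma called 0 members and 0 genes in either direction, and 520 of the 1546 genes had an unadjusted p under 0.05. Counts of called genes depended on the settings. The genes called higher and lower were 48 and 0 of 1546 with a pseudocount of 10 and 289 and 1 with 3 times the largest step. They were 1045 and 1 of the 4461 genes above 0 in at least 2 libraries. Other stretches of the gene left other numbers of genes to test. The counts were 13 and 1 of 79 in the first 3 kb, 70 and 2 of 1311 in the first 50 kb, and 53 and 0 of 1468 without the first 1 kb. They were 446 and 2 in the exact binomial test on the deposited scale and 4 and 10 in that test as shares. Leaving out 1 library gave 34 to 1106 higher and 0 to 178 lower genes. Here the lone library of an arm is assumed to vary like the other group. Members called higher were 1 with the larger pseudocount (COL12A1), 6 of 28 over genes above 0 in at least 2 libraries (all 6 at 0 in CFAP20-KO, none of the 10 tested otherwise), 4 in the exact test as deposited, and 0 to 7 when 1 library was left out (4 without CFAP20-KO replicate 1 and 7 without CFAP20-KO replicate 2). Members called lower were 1 as shares (ITGA11) and 0 to 1 when 1 library was left out (COL6A3, without CFAP20-KO replicate 1). No filter, scaling to equal totals, quantile normalization and a fit without trend called 0 genes. A fit with the replicate block called 176 genes higher and 0 lower, and 0 members. Same-numbered libraries did not deviate together (correlation -0.034). With 2 libraries a group and few CFAP20-KO reads this value cannot show whether same-numbered libraries were prepared together.

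Scaling to equal totals moved the median log2 change of all genes from 0.78 to 0.071 and quantile normalization to -0.019. With equal totals the log2 change turned negative for COL16A1 (-0.094), ITGA5 (-0.15), ITGA11 (-0.81), ADAMTS7 (-0.38), COL1A1 (-0.62) and COL6A1 (-0.70), and with quantile normalization for ITGA11 (-0.67), ADAMTS7 (-0.26), COL1A1 (-0.40) and COL6A1 (-0.72). Without 1 library in turn it ranged from -0.050 to 1.27 for COL16A1, from -0.18 to 0.28 for COL6A1 and from -0.89 to 0.021 for COL6A3. COL12A1, ADAMTS6 and ADAMTS14 kept a positive change in each limma fit in which they were tested; as a share ADAMTS6 had a ratio of 0.946. The family ratios with equal totals were 0.88 for collagens, 0.65 for integrin alpha chains and 1.29 for ADAMTS genes. In the first 3 kb they were 2.77 for collagens, 0.86 for integrin alpha chains and 5.55 for ADAMTS genes. Only 1 member, COL1A1, had enough signal in that stretch to be tested, so these ratios rest on few CFAP20-KO reads. In the first 50 kb the integrin alpha ratio was 1.63. The member share was 0.675% and 1.34% in CFAP20-KO and 0.928% and 0.806% in tagged-CFAP20 in the first 3 kb, and 1.26% and 1.10% in CFAP20-KO and 0.932% and 0.788% in tagged-CFAP20 in the first 50 kb. Without the leading member of each family the intron share was 20.1% in CFAP20-KO and 34.3% in tagged-CFAP20. The part in the first 1 kb was then 3.51% with tagged-CFAP20, from 1 to 5 kb 10.99% and 18.8%, from 5 to 50 kb 81.7% and 65.8%, and beyond 50 kb 5.34% and 11.9% (CFAP20-KO and tagged-CFAP20). The causes were not tested. The alternatives for the share test and the exon and intron test were chosen after seeing the data. The 53 member overlaps of CFAP20-KO replicate 2 limit every comparison.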
